A study of Homo sapiens with 12 samples.

Results

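The 10 genes described here carry iron into human cells, store it, release it or control those steps. TFRC, SLC11A2, SLC39A14 and STEAP3 serve iron entry, FTH1, FTL and NCOA4 serve storage, SLC40A1 serves export, HMOX1 frees iron from heme, and IREB2 controls several of the others. They were named as a list by symbol, and all 10 were found among the 22730 genes listed in both count tables of the series and passed the filter on low counts in each. The series holds 12 RNA-seq libraries labelled with the names of human hepatoma cell lines, 3 in each of 4 groups. These are cells labelled Hep-3B given an siRNA against ARD1 (siARD1), cells labelled Hep-3B given a negative-control siRNA, Huh-7 cells given siARD1, and Huh-7 cells given the control siRNA. ARD1 is now called NAA10, which adds acetyl groups to the N termini of many proteins as part of the NatA complex, and the title of the series ties it to glutathione synthesis and to escape from ferroptosis, a death that depends on iron. The labels used here give no dose or time after transfection, and nothing in them ties a replicate to its own culture, so each p-value measures only the spread between libraries, which may be technical.

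Most cells take up iron bound to transferrin through the transferrin receptor, encoded by TFRC. In the endosome STEAP3 reduces the iron and SLC11A2 (DMT1) moves it to the cytosol, while SLC39A14 (ZIP14), abundant in liver, imports iron that is not bound to transferrin. Ferritin, a shell of heavy (FTH1) and light (FTL) chains, stores iron until NCOA4 delivers it to the lysosome for breakdown. SLC40A1 (ferroportin) exports iron, and HMOX1 opens heme and releases its iron. IREB2 encodes IRP2, one of the iron regulatory proteins, which bind a hairpin called the iron-responsive element when cells are short of iron. Binding in the 3′ untranslated region of TFRC mRNA protects that mRNA from decay, whereas binding in the 5′ untranslated region of ferritin and ferroportin mRNAs blocks their translation. Counts of mRNA can therefore show the first kind of control and not the second.

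The elements are printed because they separate these classes of mRNA. GENCODE v29 principal transcripts (GRCh38) were searched on the transcript strand for a bulged C, 5 bases of any kind, the loop CAGTGN and then bases that pair with those 5 as a stem, G with T allowed. Each printed stretch has 29 bases, with the loop of 6 bases in capitals. Matches are given for 7 of the 10 genes, and those of FTH1, HMOX1 and SLC39A14 are not given here, so nothing is said of elements in those mRNAs. TFRC held 4 matches in its 3′ untranslated region, and FTL and SLC40A1 held 1 each in the 5′ untranslated region. The same search found a match in the 5′ region of 0.107% and in the 3′ region of 0.529% of 19666 principal transcripts, and none in the principal transcripts of SLC11A2, STEAP3, NCOA4 and IREB2, which says only that these letters are not in those transcripts.
TFRC 3′ element 1, chr3:196050979-196051007, minus strand: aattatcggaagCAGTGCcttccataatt
TFRC 3′ element 2, chr3:196050575-196050603, minus strand: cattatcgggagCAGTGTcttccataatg
TFRC 3′ element 3, chr3:196050510-196050538, minus strand: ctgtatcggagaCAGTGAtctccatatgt
TFRC 3′ element 4, chr3:196050463-196050491, minus strand: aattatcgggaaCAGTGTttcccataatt
FTL 5′ element, chr19:48965335-48965363, plus strand: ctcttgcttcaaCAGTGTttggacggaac
SLC40A1 5′ element, chr2:189580661-189580689, minus strand: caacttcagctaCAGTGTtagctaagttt

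Total counts were 17327615 to 25960237 per library. NAA10 was at 10.9, 15.6 and 14.4 CPM (counts scaled to library size, with TMM factors set within a line) in the siARD1 libraries labelled Hep-3B, against 48.4, 58.7 and 58.7 CPM in their controls. It was at 13.2, 9.86 and 9.99 CPM in Huh-7 siARD1 libraries, against 165, 156 and 200.2 CPM in Huh-7 controls. Under the Hep-3B label ALB stood at 0.564 to 1.09 CPM after siARD1 and 3.998 to 6.204 CPM in controls, and 0.261 to 0.345 against 1.02 to 1.97 CPM of AFP, both genes that Hep-3B is known to express. The summed level of 8 hepatocyte markers there was 73.9 to 88.7 CPM after siARD1 and 103.6 to 119.5 CPM in controls. It was 24710 to 28560 CPM in Huh-7 siARD1 libraries and 32340 to 33500 CPM in Huh-7 controls. The label Hep-3B is therefore used only as a label, and the cell type of these libraries is not settled here. Under this label, 29 genes abundant in Huh-7 were nearly absent. They stood at 0.00756 to 0.0160% of their Huh-7 control level after siARD1 and at 0.0344 to 0.0545% in controls. This is called a trace here, and its source was not tested. In those controls the trace amounts to 0.221% of the TFRC level and to at most 0.226% for any of the 10 genes. Huh-7 controls held 12490 to 12770 CPM of ALB and 4864 to 5281 CPM of AFP. The ALB and AFP under the Hep-3B label, lower after siARD1 as the trace was, cannot be told apart from that trace. Of 6 fibroblast markers, 5 were tested under the Hep-3B label, where 1 rose and 0 fell. The 1 that rose, PDGFRB, was at only 0.617 to 0.805 CPM after siARD1 and 0.194 to 0.290 CPM in controls. Summed levels were 137 to 172 CPM after siARD1 and 162 to 174 CPM in controls, mostly LUM. In Huh-7 5 were tested, 0 rose and 2 fell (COL1A1 and COL1A2), with summed levels of 29.1 to 30.9 CPM after siARD1 and 36.1 to 41.9 CPM in controls. COL1A1 was there at only 0.155 to 0.471 against 0.620 to 0.864 CPM, and COL1A2 at 14.25 to 17.63 against 24.33 to 26.72 CPM. Of 5 endothelial markers, 2 were tested under the Hep-3B label, where KDR rose and PECAM1 fell, at 63.4 to 76.2 CPM after siARD1 and 53.3 to 65.8 CPM in controls, and 1 was tested in Huh-7 and did not pass, at 10.8 to 13.2 against 13.1 to 14.4 CPM. Of 6 leukocyte and macrophage markers, 1 was tested under the Hep-3B label and 2 in Huh-7, and none of these passed. Summed levels were 1.89 to 2.43 CPM after siARD1 and 2.28 to 3.54 CPM in controls labelled Hep-3B. In Huh-7 they were 96.4 to 115 against 94.0 to 99.1 CPM, mostly LYZ. The part of these markers in the results was not tested. None of 6 erythroid markers reached 1 CPM in any library.

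TFRC showed the largest change of the 10 genes in the libraries labelled Hep-3B. The siARD1 libraries labelled Hep-3B held 295, 262 and 396 CPM of TFRC, against 107, 118 and 141 CPM in their controls. Every siARD1 library lay above every control, and siARD1 library 3 was the highest. TFRC rose there by 1.38 on the log2 scale, a 2.60-fold higher level (SE 0.18, 95% interval 0.93 to 1.83, edgeR adjusted p = 0.00242), and ranked 162 of 15762 tested genes by the size of its change. Leaving out one library at a time gave 1.19 to 1.503, with TFRC past the threshold each time.

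In Huh-7 the siARD1 libraries held 801, 885 and 847 CPM of TFRC, against 679, 671 and 709 CPM in controls. These groups did not overlap either, and TFRC rose by 0.30 (SE 0.05, 95% interval 0.19 to 0.41, edgeR adjusted p = 0.000154). That call was lost when both lines shared one estimate of the spread (0.28, edgeR adjusted p = 0.169). The response in the libraries labelled Hep-3B exceeded that in Huh-7 by 1.10 (SE 0.20, edgeR adjusted p = 0.00239 for the difference). Counts are shares of a library, so fewer cells and less RNA per cell cannot be told apart for this or any other gene here.

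On one scale over all 12 libraries, TFRC averaged 792 ± 38.6 CPM in Huh-7 siARD1 libraries, 652 ± 23.2 CPM in Huh-7 controls, 338 ± 74.4 CPM in siARD1 libraries labelled Hep-3B and 129.9 ± 18.7 CPM in their controls (SD, n = 3 each). No neighbouring groups in this order overlapped. The highest siARD1 library labelled Hep-3B, at 421 CPM, stayed below the lowest Huh-7 control, at 637 CPM.

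The 250 bases before the RefSeq start of TFRC (GRCh38.p14, chr3:196082091-196082340, minus strand) are shown because TFRC had the largest change of the list. The motifs ACGTG (a form of the core of the site bound by hypoxia-inducible factors), TGACNNNGC (the core of the antioxidant response element) and TATAAA were searched on both strands. Matches are in capitals, and other forms of the hypoxia core were not searched.
TFRC promoter: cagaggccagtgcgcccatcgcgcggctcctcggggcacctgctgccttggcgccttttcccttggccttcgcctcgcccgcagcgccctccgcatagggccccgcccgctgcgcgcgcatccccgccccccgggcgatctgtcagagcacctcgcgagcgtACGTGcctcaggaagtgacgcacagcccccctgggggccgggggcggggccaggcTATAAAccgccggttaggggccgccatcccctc
ACGTG lay from -88 to -84 and TATAAA from -33 to -28 relative to the start, and the motifs did not overlap. Among 35116 promoters of the same length, 18.5% held ACGTG, 10.9% held TGACNNNGC and 10.7% held TATAAA. Promoter entries matched 7 of the 10 genes, and FTH1, HMOX1 and SLC39A14 had none. The promoter of FTL held ACGTG as well, on the opposite strand from -11 to -7. A match is a description of these letters and not a bound site.

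Another importer, SLC39A14, stood at 212, 208 and 189.7 CPM in siARD1 libraries labelled Hep-3B, against 123, 145 and 150.2 CPM in controls. In Huh-7 it stood at 1008, 972 and 919.6 CPM after siARD1, against 816, 779 and 809 CPM in controls. In neither line did the groups overlap. SLC39A14 rose by 0.54 (SE 0.07, edgeR adjusted p = 4.88e-05) in the libraries labelled Hep-3B and by 0.27 (SE 0.05, edgeR adjusted p = 0.00039) in Huh-7. The responses differed by 0.29 (SE 0.09, edgeR adjusted p = 0.0168). That difference no longer passed without control 1 labelled Hep-3B (0.19, edgeR adjusted p = 0.0902) or siARD1 library 1 labelled Hep-3B (0.26, edgeR adjusted p = 0.0601).

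STEAP3, the endosomal reductase, moved in opposite directions. The siARD1 libraries labelled Hep-3B held 21.5, 24.4 and 22.6 CPM, against 35.6, 31.6 and 32.5 CPM in controls. The Huh-7 siARD1 libraries held 26.0, 33.7 and 33.3 CPM, against 21.9, 24.6 and 25.2 CPM in controls. All siARD1 libraries were below the controls under the first label and above them in Huh-7, where siARD1 library 1 was closest to the controls. STEAP3 fell by 0.54 (SE 0.09, edgeR adjusted p = 0.000247) in the first and rose by 0.37 (SE 0.10, edgeR adjusted p = 0.00371) in Huh-7, and the difference in response was -0.89 (SE 0.14, edgeR adjusted p = 1.3e-05). STEAP3-AS1, an antisense gene that overlaps its exons, held 17 counts over 6 libraries beside 3556 for STEAP3 in the table labelled Hep-3B, and 19 beside 3294 in Huh-7.

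SLC11A2, which carries iron out of the endosome, stood at 59.2, 58.8 and 65.5 CPM after siARD1 and 60.3, 59.0 and 64.3 CPM in controls labelled Hep-3B, groups that overlapped. Its log2 fold change was -0.00013 (95% interval -0.15 to 0.15, edgeR adjusted p = 0.999). In Huh-7 it stood at 84.8, 88.3 and 78.9 CPM after siARD1 and 92.1, 86.4 and 92.8 CPM in controls. The groups overlapped, with a log2 fold change of -0.11 (95% interval -0.23 to 0.015, edgeR adjusted p = 0.154) that passed with upper-quartile scaling (-0.17, edgeR adjusted p = 0.0248).

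Of the ferritin chains, FTH1 rose in both lines and FTL in Huh-7. FTH1, the chain with ferroxidase activity, stood at 1309, 1250.5 and 1409 CPM in siARD1 libraries labelled Hep-3B, against 895, 987 and 1045 CPM in controls. In Huh-7 FTH1 stood at 2554, 2308.5 and 2793 CPM after siARD1, against 2101, 2111 and 2005 CPM in controls. All siARD1 libraries were above all controls in both lines. FTH1 rose by 0.44 (SE 0.07, edgeR adjusted p = 0.000101) in the libraries labelled Hep-3B and by 0.30 (SE 0.06, edgeR adjusted p = 0.000625) in Huh-7, and the difference between these responses, 0.16, did not pass (95% interval -0.04 to 0.35, edgeR adjusted p = 0.23).

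FTL, the chain that helps the mineral core form, stood at 7569.6, 7025 and 7337 CPM in siARD1 libraries labelled Hep-3B, and at 7221, 7296 and 7225 CPM in controls. The siARD1 libraries lay on both sides of the controls, with a log2 fold change of 0.01 (95% interval -0.09 to 0.12, edgeR adjusted p = 0.878). In Huh-7 FTL stood at 5038, 4649 and 4872 CPM after siARD1, against 3393.5, 3562 and 3396 CPM in controls. Those groups did not overlap, and FTL rose by 0.49 (SE 0.06, edgeR adjusted p = 4.92e-07). The response labelled Hep-3B minus the Huh-7 response was -0.46 (SE 0.08, edgeR adjusted p = 4.99e-05). FTL took 0.714 to 0.759% of all counts after siARD1 and 0.707 to 0.726% in controls labelled Hep-3B, and 0.467 to 0.5% against 0.342 to 0.356% in Huh-7.

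Both ferritin genes have many near-identical processed pseudogenes, and how the counting split reads among such copies is uncertain. BEST1, on the strand opposite FTH1 with overlapping exons, held 605 counts over 6 libraries beside 147259 for FTH1 in the table labelled Hep-3B, and 389 beside 276741 in Huh-7. NCOA4, the receptor that takes ferritin to the lysosome, stood at 175, 171 and 171 CPM after siARD1 and 183, 171 and 178 CPM in controls labelled Hep-3B (log2 fold change -0.04, 95% interval -0.16 to 0.08, edgeR adjusted p = 0.611). In Huh-7 NCOA4 stood at 359, 345 and 376 CPM after siARD1, against 319, 325 and 329 CPM in controls, without overlap. It rose there by 0.15 (SE 0.05, edgeR adjusted p = 0.0234). That call was lost without any one of 4 Huh-7 libraries (control 2 or 3, siARD1 1 or 3; edgeR adjusted p from 0.0537 to 0.0692), with upper-quartile scaling (0.09, edgeR adjusted p = 0.171) and with both lines in one fit (0.13, edgeR adjusted p = 0.0638).

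SLC40A1, the exporter, stood at 57.9, 65.2 and 54.3 CPM in siARD1 libraries labelled Hep-3B, and at 61.0, 59.8 and 58.7 CPM in controls. The siARD1 libraries lay on both sides of the controls, with a log2 fold change of -0.02 (95% interval -0.18 to 0.14, edgeR adjusted p = 0.893). In Huh-7 SLC40A1 stood at 123, 126 and 121 CPM after siARD1, against 140.2, 129 and 135 CPM in controls. There every siARD1 library was below every control, but the log2 fold change of -0.12 (SE 0.05, 95% interval -0.23 to -0.02) did not pass (edgeR adjusted p = 0.0626). It passed with upper-quartile scaling (-0.19, edgeR adjusted p = 0.00646) and when genes needed at least 1 CPM in 3 libraries (-0.14, edgeR adjusted p = 0.0394).

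HMOX1, the inducible heme oxygenase, stood at 49.3, 49.4 and 48.5 CPM in siARD1 libraries labelled Hep-3B, and at 53.3, 55.7 and 48.9 CPM in controls. Control 3 lay among the siARD1 libraries, and the log2 fold change of -0.10 did not pass (95% interval -0.25 to 0.05, edgeR adjusted p = 0.314). In Huh-7 HMOX1 stood at 52.9, 49.3 and 51.3 CPM after siARD1, against 30.0, 34.6 and 32.0 CPM in controls. These groups were well apart, and HMOX1 rose by 0.67, a 1.59-fold higher level (SE 0.07, edgeR adjusted p = 2.08e-07), the largest change among the 10 genes in Huh-7. The difference in response was -0.75 (SE 0.10, edgeR adjusted p = 3.04e-06).

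IREB2 stood at 82.5, 81.4 and 87.8 CPM in siARD1 libraries labelled Hep-3B, against 72.8, 77.2 and 77.2 CPM in controls. The groups did not overlap, but the log2 fold change of 0.15 (95% interval 0.01 to 0.29) did not pass (edgeR adjusted p = 0.0896). In Huh-7 IREB2 stood at 205, 206 and 212 CPM after siARD1 and at 194, 203 and 212 CPM in controls, which overlapped (log2 fold change 0.03, 95% interval -0.08 to 0.14, edgeR adjusted p = 0.664). IRP2 protein is known to be controlled largely by its breakdown through FBXL5, which mRNA counts do not show.

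**Figure D1:**
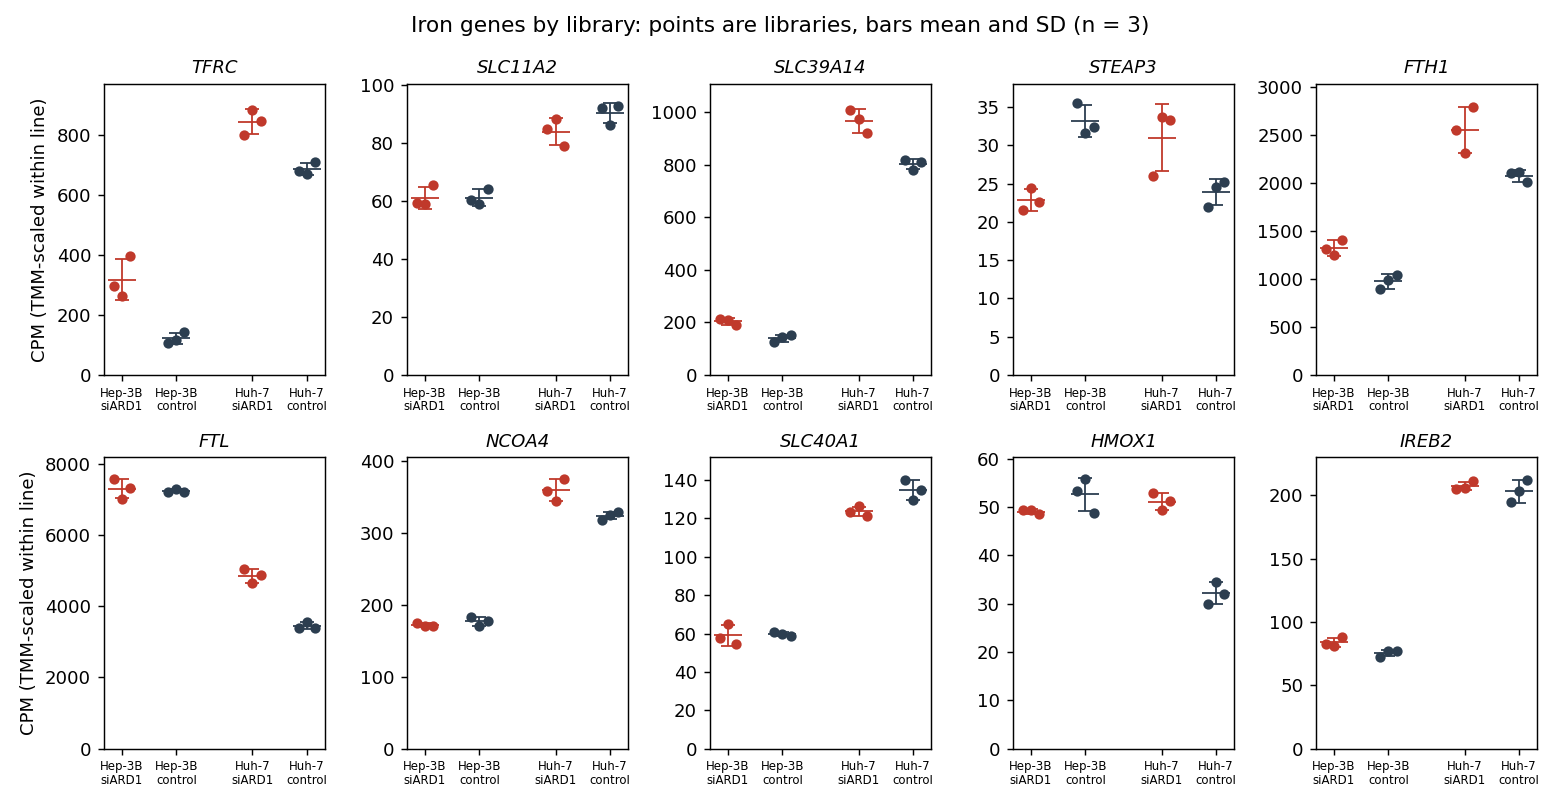
CPM of each of the 10 genes by library (points), with the mean and SD of 3 libraries (bars), siARD1 in red and control siRNA in dark blue, for the libraries labelled Hep-3B and for Huh-7. TFRC averaged 318 CPM after siARD1 against 122 CPM in controls under the first label, while SLC40A1 averaged 59.2 against 59.8 CPM.

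Counted together, 4 of the 10 genes passed in the libraries labelled Hep-3B, 3 higher (TFRC, SLC39A14 and FTH1) and 1 lower (STEAP3), where 32.2% of all 15762 tested genes passed, 16.8% higher and 15.3% lower. In Huh-7 7 of 10 passed, all higher (TFRC, SLC39A14, STEAP3, FTH1, FTL, NCOA4 and HMOX1), where 40.1% of 15919 tested genes passed, 21.2% higher and 18.9% lower. The median log2 fold change of the 10 genes was 0.0062 in the libraries labelled Hep-3B and 0.28 in Huh-7, beside -0.01 and -0.0076 over all tested genes. Groups did not overlap for 5 of the 10 genes in the libraries labelled Hep-3B (45% of all tested genes, 22.7% higher and 22.3% lower) and for 8 in Huh-7 (50%, with 26.1% higher and 23.9% lower). TFRC, SLC39A14 and FTH1 passed as higher in both lines, as did 4.55% of 13800 genes tested in both, while 0 passed as lower in both (3.69% of those tested), and 1 gene, STEAP3, passed in opposite directions, as did 7.75%. The difference between the lines passed for 5 of 10 genes (31.4% of 17122 tested, 16.2% positive and 15.2% negative). TFRC and SLC39A14 rose more in the libraries labelled Hep-3B, HMOX1 and FTL had the higher fold change in Huh-7, and the STEAP3 difference was between a fall under the Hep-3B label and a rise in Huh-7.

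**Figure D2:**
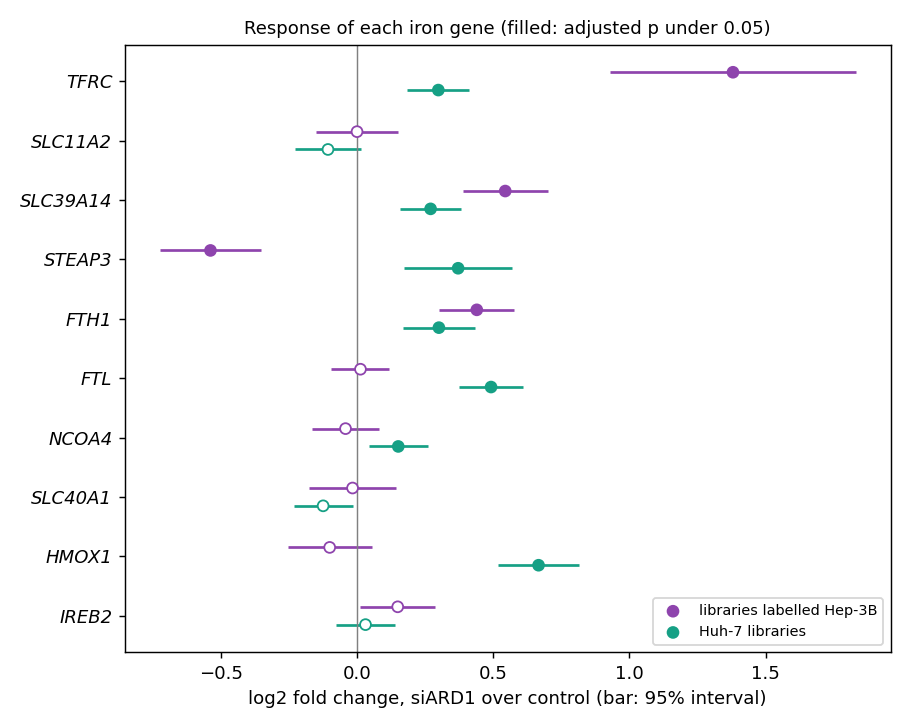
Log2 fold change of siARD1 over control for each gene, with its 95% interval, in the libraries labelled Hep-3B (purple) and in Huh-7 (green). Filled points passed at an adjusted p under 0.05, as TFRC, SLC39A14, FTH1 and STEAP3 did in both lines, STEAP3 with opposite signs.

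TFRC was then set against ferritin and the exporter by the log2 ratio of CPM within each library, which does not depend on how libraries are scaled. In the libraries labelled Hep-3B, the ratio of TFRC to FTH1 was -2.15, -2.25 and -1.83 after siARD1, against -3.06, -3.07 and -2.89 in controls. The mean difference was 0.93 on the log2 scale, a 1.90-fold higher ratio. Against FTL the ratio averaged -4.55 ± 0.29 after siARD1 and -5.90 ± 0.20 in controls, a difference of 1.35 (2.56-fold), and against SLC40A1 2.41 ± 0.43 and 1.02 ± 0.23, a difference of 1.39 (2.62-fold; SD, n = 3 each). None of these groups overlapped, and each exact two-sided permutation test gave p = 0.1, below which 3 libraries against 3 cannot go.

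In Huh-7 the ratio of TFRC to FTH1 was -1.67, -1.38 and -1.72 after siARD1 and -1.63, -1.65 and -1.50 in controls. These overlapped, with a mean difference of 0.0012 (exact permutation p = 1). Against FTL the ratio averaged -2.52 ± 0.13 after siARD1 and -2.33 ± 0.07 in controls, a difference of -0.19 with overlapping groups (exact permutation p = 0.2, n = 3 each). Against SLC40A1 the ratio averaged 2.77 ± 0.06 after siARD1 and 2.35 ± 0.06 in controls, a difference of 0.42 without overlap (exact permutation p = 0.1, n = 3 each). The ratio of receptor to exporter mRNA was thus higher without overlap in both lines, and the ratios to ferritin mRNAs were so in the libraries labelled Hep-3B. No test here compared these ratios between the lines.

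Within ferritin, the log2 ratio of FTH1 to FTL differed in opposite directions. It averaged -2.47 ± 0.08 after siARD1 and -2.90 ± 0.11 in controls labelled Hep-3B, a difference of 0.43. In Huh-7 it averaged -0.93 ± 0.11 after siARD1 and -0.74 ± 0.04 in controls, a difference of -0.20. Groups did not overlap in either line (SD, n = 3 each; exact permutation p = 0.1 in both, the smallest possible).

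**Figure D3:**
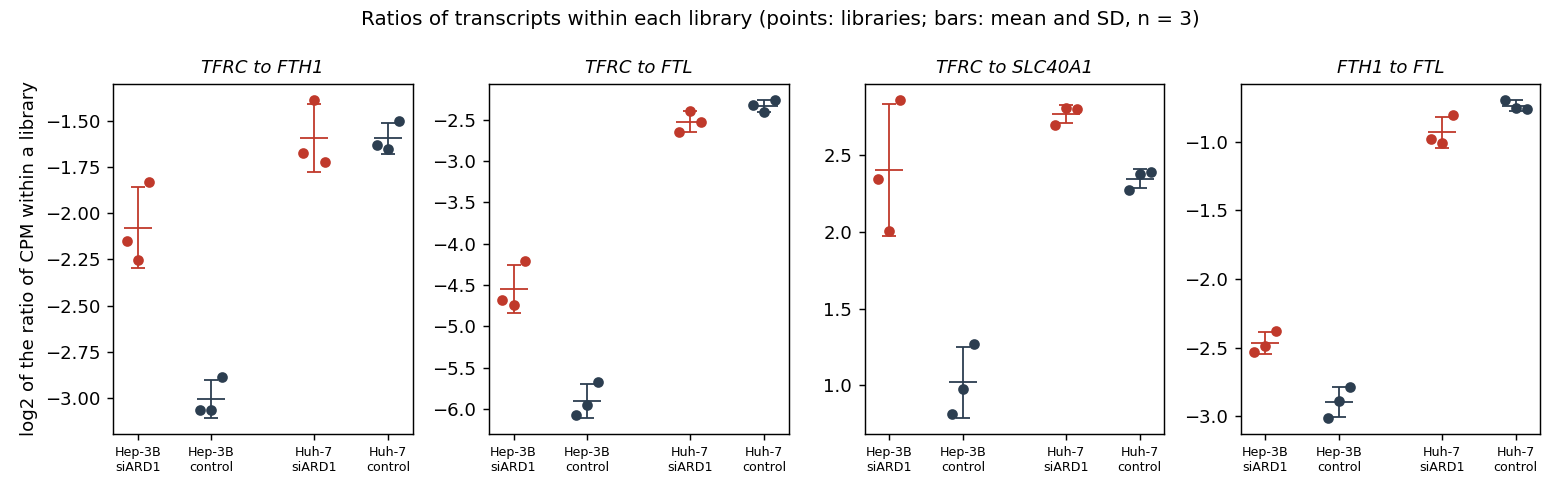
Log2 ratio of CPM within a library for TFRC to FTH1, TFRC to FTL, TFRC to SLC40A1 and FTH1 to FTL, with each library as a point and mean and SD as bars, siARD1 in red and control in dark blue. The 3 TFRC ratios lie higher after siARD1 in the libraries labelled Hep-3B, while in Huh-7 the ratio to FTH1 overlaps.

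Levels of different genes were compared per kilobase of the GENCODE principal transcript. In the libraries labelled Hep-3B, FTL averaged 8326 ± 311 CPM per kb after siARD1 and 8254 ± 48.0 in controls, FTH1 1076 ± 65.1 and 794 ± 61.6, TFRC 62.2 ± 13.6 and 23.9 ± 3.43, and SLC40A1 17.2 ± 1.61 and 17.4 ± 0.341. In Huh-7 FTL averaged 5527 ± 222 CPM per kb after siARD1 and 3930.2 ± 110.2 in controls, FTH1 2076 ± 197 and 1686 ± 47.6, TFRC 165 ± 8.14 and 134 ± 3.91, and SLC40A1 35.9 ± 0.706 and 39.2 ± 1.58 (SD, n = 3 each). Ferritin light chain mRNA was thus the most abundant of these 4 in every group, and the exporter the least.

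The control libraries gave the starting levels in each line on one scale. All 10 genes differed between controls labelled Hep-3B and Huh-7 controls, where 80.7% of 17122 tested genes did (40% higher and 40.7% lower), and line and preparation cannot be told apart. SLC39A14 averaged 148 CPM in controls labelled Hep-3B and 761 in Huh-7 controls (log2 difference -2.36, SE 0.07, edgeR adjusted p = 5.53e-23), and TFRC 129.9 and 652 CPM (-2.33, SE 0.15, edgeR adjusted p = 1.07e-07). IREB2 (-1.26), SLC40A1 (-1.01), FTH1 (-0.92), NCOA4 (-0.71) and SLC11A2 (-0.40) were lower in controls labelled Hep-3B as well. FTL, at 7709.8 against 3276 CPM (1.23, SE 0.06), HMOX1 (0.87) and STEAP3 (0.64) were higher there. The libraries labelled Hep-3B thus started with less TFRC, SLC39A14 and SLC40A1 mRNA, and with more FTL.

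Genes whose pattern over the 12 libraries was most like that of TFRC were ranked by Pearson's r of log2 CPM centred on each line's controls, among 13799 other genes. The 3 highest were the RNA-binding protein gene HNRNPH3 (r = 0.989), the endosomal FYVE domain gene ZFYVE16 (r = 0.988) and the antizyme inhibitor gene AZIN1 (r = 0.983). The points share libraries and group means, so these values describe a likeness in these libraries. HNRNPH3 rose by 0.53 in the libraries labelled Hep-3B and by 0.18 in Huh-7 (edgeR adjusted p = 1.84e-05 and 0.00814), AZIN1 by 0.58 and 0.16 (edgeR adjusted p = 2.1e-05 and 0.0141), and ZFYVE16 by 0.57 in the libraries labelled Hep-3B (edgeR adjusted p = 0.000115), with 0.11 in Huh-7 (edgeR adjusted p = 0.154). In Huh-7 the HNRNPH3 call was lost without control 3 (edgeR adjusted p = 0.0511) and the AZIN1 call without control 2 or 3 (edgeR adjusted p = 0.0601 and 0.0677). Among the 10 genes themselves, r with TFRC was 0.904 for IREB2, 0.877 for SLC39A14, 0.848 for FTH1 and -0.703 for STEAP3, and between -0.319 and 0.214 for the rest.

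Around these 10 genes, 80 others of iron and heme handling were followed in 8 lists. A gene named for one line is not thereby shown to respond differently in the other, unless the test of the difference is given. Under the Hep-3B label 11 of 69 tested genes rose and 12 fell (33.3%, beside 32.2% of all tested genes). In Huh-7, 21 of 75 rose and 14 fell (46.7%, beside 40.1% of all). Of all tested genes 16.8% rose and 15.3% fell under the Hep-3B label, and 21.2% rose and 18.9% fell in Huh-7. In iron entry, 1 of 6 rose and 2 fell in the libraries labelled Hep-3B (median -0.30), and 0 of 8 rose and 5 fell in Huh-7 (median -0.36). SLC39A8, a relative of SLC39A14, rose under the Hep-3B label at 52.1 ± 3.398 CPM after siARD1 and 32.8 ± 1.20 in controls (0.67, edgeR adjusted p = 1.19e-05). TF, the plasma iron carrier transferrin, fell in both, by 0.65 at 19.1 ± 1.74 CPM after siARD1 and 30.1 ± 2.89 in controls labelled Hep-3B, and by 0.75 at 2502 ± 318 CPM after siARD1 and 4211 ± 177 in Huh-7 controls (edgeR adjusted p = 0.000133 and 2.5e-07). TFR2, the second transferrin receptor and an iron sensor of hepatocytes, fell by 0.97 in Huh-7 (edgeR adjusted p = 8.09e-09), as did STEAP2 (-0.32, lost without Huh-7 control 2 or siARD1 library 1, edgeR adjusted p = 0.0571 and 0.0736), and LRP1 fell in both lines, by 0.44 under the Hep-3B label and by 0.18 in Huh-7 (edgeR adjusted p = 3.17e-05 and 0.0155). The Huh-7 call of LRP1 was lost without Huh-7 control 1 or siARD1 library 2 (edgeR adjusted p = 0.0602 and 0.0797).

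Of the other export genes, CP, which encodes the ferroxidase ceruloplasmin, fell in both lines. It stood at 523, 475 and 602 CPM in siARD1 libraries labelled Hep-3B, against 912, 1002.5 and 1068 CPM in controls. In Huh-7 it stood at 173, 186 and 229 CPM after siARD1, against 253, 262 and 267 CPM in controls. Neither line showed overlap, with falls of 0.90 and 0.41 (edgeR adjusted p = 4.57e-06 and 0.00218). HAMP, the gene of hepcidin, which closes ferroportin, fell by 0.41 in Huh-7 (26.6 ± 3.89 CPM after siARD1 and 35.2 ± 5.399 in controls, edgeR adjusted p = 0.0177). That call was lost without Huh-7 control 2 or 3 (edgeR adjusted p = 0.0581 and 0.0598). TF, CP, TFR2, HAMP and HP are liver genes, and the 8 hepatocyte markers summed lower after siARD1 in both lines, TF among them, with 4 of 6 tested falling and 0 rising under the first label and 4 of 8 falling and 0 rising in Huh-7. ALB and AFP are among these markers. Under the Hep-3B label they cannot be told apart from the trace of genes abundant in Huh-7, which was lower after siARD1. The part of the hepatocyte markers in these falls was not tested. At its level in controls labelled Hep-3B the trace amounts to 5.49% of TF and 0.0103% of CP, and its source was not tested.

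Of the genes that control hepcidin, 8 of 17 rose and 3 fell in Huh-7 (median 0.23), beside 21.2% and 18.9% of all tested genes. In the libraries labelled Hep-3B 5 of 16 rose and 0 fell (median 0.02), beside 16.8% and 15.3%. The Huh-7 rises were led by SMAD6, an inhibitor of BMP signalling (1.46, edgeR adjusted p = 2.48e-07). It stood at 246 ± 28.96 CPM after siARD1 and 89.3 ± 9.02 in controls. The BMP target ID1 (0.84) and the inhibitor SMAD7 (0.82) followed. In the libraries labelled Hep-3B NEO1, which encodes the hemojuvelin-binding receptor neogenin (0.96), BMP6 (0.55) and FURIN (0.45) led. FURIN, a protease, rose in Huh-7 as well (0.42, edgeR adjusted p = 1.15e-06), and the difference between its responses did not pass (0.05, edgeR adjusted p = 0.735). In heme breakdown and transport, the heme transporter gene SLC48A1 rose by 0.25 in the libraries labelled Hep-3B (edgeR adjusted p = 0.0265) and by 0.83 in Huh-7 (edgeR adjusted p = 3.43e-07), and the difference between these responses passed (-0.56, edgeR adjusted p = 0.000882). BLVRA, which reduces biliverdin, fell by 0.26 in the libraries labelled Hep-3B. There the SLC48A1 call was lost without control 1 or 2 or siARD1 library 1 or 2 (edgeR adjusted p from 0.0511 to 0.12), and the BLVRA call without control 1 or 3 or siARD1 library 1 or 3 (edgeR adjusted p from 0.0594 to 0.0896). In Huh-7 ABCG2 rose by 0.36 and HP, the plasma hemoglobin binder haptoglobin, fell by 1.46.

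In heme synthesis, 0 of 8 rose and 3 fell in the libraries labelled Hep-3B (beside 16.8% and 15.3% of all tested genes). In Huh-7 3 of 8 rose and 3 fell (beside 21.2% and 18.9%). ALAD and CPOX, enzymes of porphyrin assembly, fell in both lines, by 0.49 and 0.23 under the first label and by 0.41 and 0.32 in Huh-7. PPOX fell by 0.46 in Huh-7. Under the Hep-3B label the CPOX call was lost without control 1 or 2 or siARD1 library 1 or 3 (edgeR adjusted p from 0.0532 to 0.156). Of the iron regulatory system and other mRNAs with an iron-responsive element, 1 of 6 rose in the libraries labelled Hep-3B (beside 16.8%). In Huh-7 2 of 6 rose (beside 21.2%), and 0 fell in either. CDC42BPA rose by 0.23 in Huh-7. In the list of mitochondrial iron and iron-sulfur clusters, 3 of 21 rose and 4 fell in the libraries labelled Hep-3B (beside 16.8% and 15.3%). In Huh-7 4 of 21 rose and 0 fell (beside 21.2% and 18.9%). CISD2 rose in both lines, by 0.42 under the Hep-3B label and by 0.22 in Huh-7 (edgeR adjusted p = 0.00157 and 0.0265), and the difference did not pass (0.21, edgeR adjusted p = 0.18). The Huh-7 call of CISD2 was lost without control 2 or 3 or siARD1 library 1 (edgeR adjusted p from 0.072 to 0.102). CIAPIN1 (0.33) and ISCA1 (0.24) rose in Huh-7. Among the other genes of storage, the iron chaperone gene PCBP1 fell by 0.40 in the libraries labelled Hep-3B (lost without control 2 or siARD1 library 3, edgeR adjusted p = 0.0542 and 0.0743), and HERC2, a ligase that acts on NCOA4, rose by 0.33 in Huh-7.

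**Figure D4:**
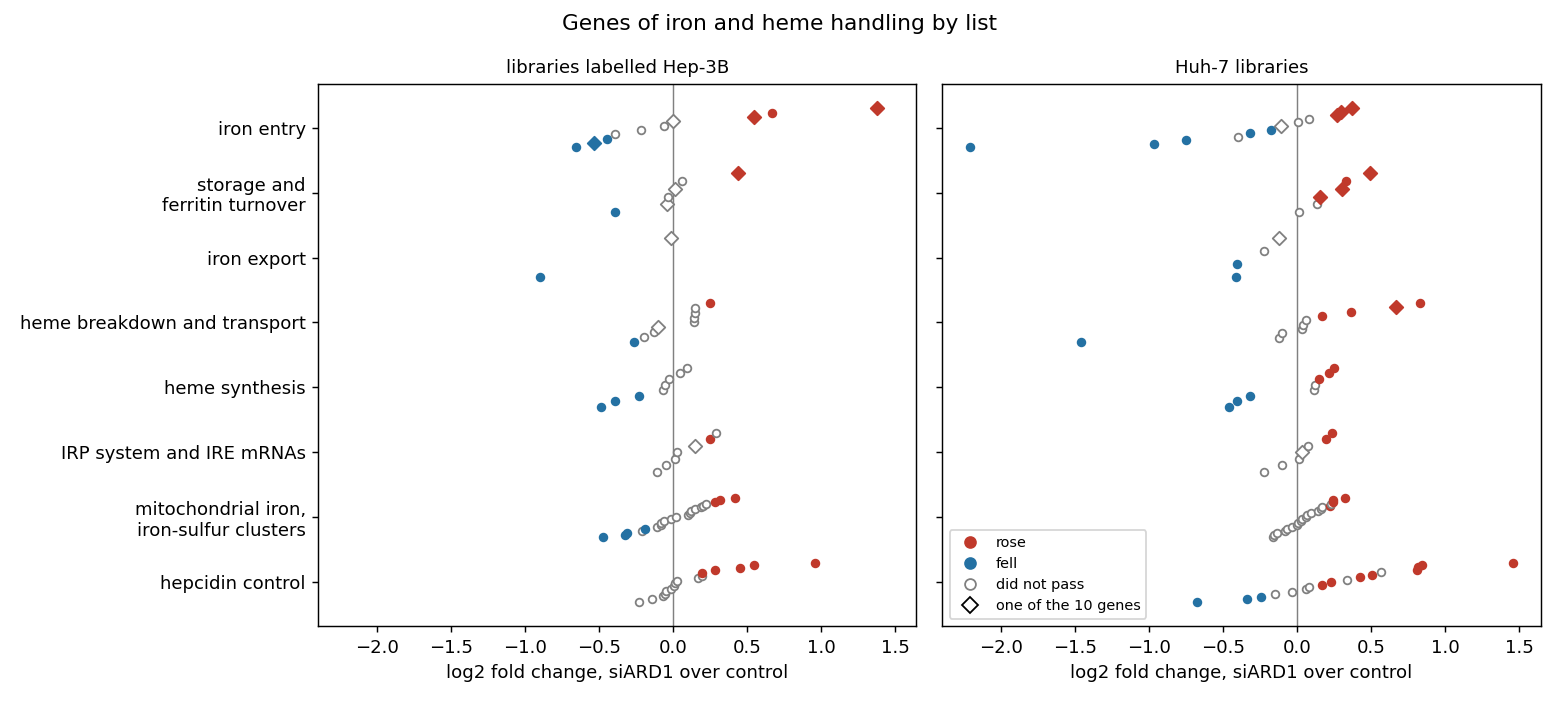
Log2 fold change of siARD1 over control for each tested gene of the 8 lists, in the libraries labelled Hep-3B (left) and in Huh-7 (right), red where the gene rose, blue where it fell and open where it did not pass, with diamonds for the 10 genes. TFRC, at 1.38, is the point farthest to the right under the first label.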

How the data were processed

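RNA-seq gene counts of 12 libraries were analysed. Per the labels, ribosomal RNA was removed and a directional kit was used. Per the submitters' processing notes, cutadapt 4.6, STAR 2.7.11b and GRCh38 were used. Not given in the sources used here: the counting tool, its annotation and its use of strand. The deposited tables hold raw counts per Ensembl gene, and 0 columns were left unmapped. Symbols were found for 25701 of 25720 and 25698 of 25714 genes, with positions and lengths from GENCODE v29 (GRCh38).

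Each line was fitted alone in R 4.3.3 with edgeR 4.0.16: filterByExpr (minimum count 10, total 15), TMM factors, a robust quasi-likelihood F-test, and Benjamini-Hochberg adjustment over all tested genes at 0.05. Log2 fold changes are siARD1 minus control. Approximate SEs, and the 95% intervals from them, were derived from the fold change and its F statistic. Differences between lines and between controls came from one fit of 4 groups. The steps were tested on simulated data. Alternatives used limma 3.58.1 and DESeq2 1.42.0 besides edgeR. Of genes outside the 10, the text names NAA10, the 3 largest changes past the threshold per list and line among genes averaging 1 CPM or more, and the 3 genes most like TFRC, and says where a gene was chosen otherwise. Some genes that this rule names are not reported here. The members and lists were chosen with earlier results of these data known. The trace was taken from genes at 100 CPM or more in Huh-7 controls and at least 1000-fold lower in controls labelled Hep-3B. Figures used matplotlib 3.10.9.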

Additional observations from a re-analysis of the deposited data

Results flagged for a closer look

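For 5 of the 10 genes the response to siARD1 differed between the libraries labelled Hep-3B and Huh-7, by the edgeR test of the difference itself. TFRC rose more in the libraries labelled Hep-3B (difference 1.10 on the log2 scale), as did SLC39A14 (0.29). HMOX1 (-0.75) and FTL (-0.46) had the higher fold change in Huh-7, where both rose. STEAP3 (-0.89) fell in the libraries labelled Hep-3B and rose in Huh-7. NAA10 itself changed by -2.01 in the libraries labelled Hep-3B and by -3.98 in Huh-7, and the part of this in the differences was not tested.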

How the results depend on the processing

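At an adjusted p of 0.01 3073 genes passed in the libraries labelled Hep-3B in place of 5070. Other alternatives, where run, moved none of the 4 counts of genes by over 1.5 times: RLE or upper-quartile scaling, DESeq2, limma-voom, all genes unfiltered, at least 1 CPM in 3 libraries, both lines in one fit, the replicate block, and each library left out. The replicate block was not run for the comparison of controls, and both lines in one fit was an alternative only for the counts within a line. Deviations of same-numbered libraries correlated at 0.0344 to 0.0652 under the Hep-3B label, where those of differently numbered libraries correlated at -0.0548 to -0.0103. In Huh-7 the values were -0.0646 to 0.052 for the same number and -0.103 to 0.108 for different numbers. All are small, and whether the numbers pair the libraries is not settled. With the replicate block, 5597 genes passed in the libraries labelled Hep-3B (against 5070), 6328 in Huh-7 (against 6388) and 5606 for the difference between lines (against 5380), and no call among the 10 genes changed. The ratios, paired by number, gave exact sign test p of 0.25 to 1. With 3 pairs that test cannot go below 0.25, so it cannot decide whether the paired ratios differ. Upper-quartile scaling gave 2557 higher and 3887 lower genes in Huh-7, against 3379 and 3009 with TMM, and put the median of all genes there at -0.07. Over 92 results for single genes and 1465 alternatives, 78 lost the threshold, 6 gained it and 0 of the called results changed sign. Among the 10 genes, calls changed for TFRC, NCOA4, SLC40A1 and SLC11A2 in Huh-7 as given with each, and for differences between lines in SLC39A14 (lost also at 0.01) and NCOA4 (-0.18, adjusted p = 0.0877, which passed with DESeq2 at 0.0225 and without control 2 labelled Hep-3B at 0.0365). One fit of both lines ended the call of BLVRA under the Hep-3B label (edgeR adjusted p = 0.0526) and the Huh-7 calls of CISD2 (0.0566) and AZIN1 (0.0953). Upper-quartile scaling ended the Huh-7 calls of CISD2 (0.107), HNRNPH3 (0.0794) and AZIN1 (0.126), and DESeq2 that of CISD2 (0.0518). The alternatives for 10 further genes, CISD2, HNRNPH3 and AZIN1 among them, were added after seeing the data. The deposited counts hold 0 genes with an FTH1 or FTL pseudogene symbol, so pseudogene counts could not be added to FTH1 and FTL. Depth does not limit the 10 genes, which held at least 1505 counts per group of 3 libraries.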

Other observations

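Besides STEAP3, 4 of 68 genes of the wider lists tested in both lines passed in opposite directions, beside 7.75% of 13800 genes. They included NEO1 and SMAD5, singled out here after their values were seen. NEO1 rose in the libraries labelled Hep-3B (0.96) and fell in Huh-7 (-0.24), with 13.4 ± 0.291 CPM after siARD1 against 6.92 ± 0.433 in controls under the Hep-3B label, and 56.3 ± 6.29 against 66.6 ± 4.38 CPM in Huh-7. SMAD5, a mediator of BMP signalling, rose under the Hep-3B label (0.28) and fell in Huh-7 (-0.34). The test of the difference passed for NEO1 (edgeR adjusted p = 8.96e-08) and SMAD5 (edgeR adjusted p = 0.000588). The NEO1 call in Huh-7 was lost without Huh-7 control 1 or siARD1 library 2 (edgeR adjusted p = 0.0658 and 0.0962), and the SMAD5 call under the Hep-3B label without control 2 or 3 or siARD1 library 2 or 3 (edgeR adjusted p from 0.0633 to 0.101).

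The genes of IRP1 and of the subunit that senses iron for IRP2 gave no call. ACO1, which encodes IRP1, had log2 fold changes of 0.02 in the libraries labelled Hep-3B and 0.01 in Huh-7 (edgeR adjusted p = 0.871 and 0.877). FBXL5, the iron-binding subunit that marks IRP2 for breakdown, had -0.05 and -0.10 (edgeR adjusted p = 0.627 and 0.17), and with upper-quartile scaling passed as lower in Huh-7 (-0.17, edgeR adjusted p = 0.0264). These 2 genes were also chosen after their values were seen.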
